A study of Mus musculus with 6 samples.

Results

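The neuronal microtubule-associated proteins (MAPs) and stathmins were followed as 10 genes, chosen by gene symbol: Mapt, Map1a, Map1b, Map2, Map6, Dcx, Dclk1, Stmn1, Stmn2 and Stmn3. All 10 were found among the 24041 genes of the deposited count table, and all 10 passed the low-count filter that left 14451 genes for testing. RNA sequencing had been done on mouse cerebral cortex cells that took up plasmids through electroporation (DNA uptake driven by an electric field) and were isolated by flow cytometry for their green fluorescent protein (GFP). In 3 libraries the cells had received GFP together with a mutant PRPF6, and in the other 3 they had received GFP together with wild-type PRPF6. PRPF6 is a bridging protein of the tri-snRNP, a building block of the spliceosome. The labels give neither the PRPF6 mutation, nor the species of the construct, nor the strain and age of the mice, nor whether a library came from 1 animal or several. The spread between libraries may therefore be partly technical. Both groups carried a PRPF6 plasmid and no group lacked one.

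Microtubules are hollow polymers of tubulin that stiffen the processes of a neuron and serve as tracks for transport and for the moving nucleus. Structural MAPs bind along the polymer and stabilise it, and different members mark axons and dendrites. Doublecortin proteins hold the lattice together in migrating neurons, and human mutations of DCX disturb cortical layering. Stathmins act the other way: they bind free tubulin and favour disassembly. Tau, the product of Mapt, is a substrate of the BRSK polarity kinases as well as of the MARK kinases.

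With mutant PRPF6, 8 of the 10 transcripts had a lower fitted mean than with wild-type PRPF6, and Map1a and Map6 had a higher one. The median log2 difference of the 10 genes was −0.44 (mutant minus wild-type PRPF6), while over all genes tested it was −0.0013 and 50.2% of genes had a lower fitted mean. None of the 10 passed the test across all genes, where each had an adjusted p of 1.00 (edgeR quasi-likelihood test, Benjamini-Hochberg adjustment over 14451 genes, threshold 0.05). That test called 0 genes in all, which is 0% of those tested, with 489 genes (3.38%) at an unadjusted p under 0.05. limma-voom also called 0 genes (551 at an unadjusted p under 0.05), and DESeq2 called 6, none of them one of the 10 (642 at an unadjusted p under 0.05, among them Mapt, Map1b, Dclk1 and Stmn2, all lower, as were 1.8% of all genes at that level). Lower at an unadjusted p under 0.05 were 2 of the 10, Map1b and Stmn2, against 1.20% of all genes tested, and higher at that level were 0 of the 10, against 2.18%. Groups that did not overlap, with every mutant library below every wild-type library, were seen in 1 of the 10, Map1b, against 4.54% of all genes, and the opposite separation in 0 of the 10, against 4.60%. Summed over the 10 genes, the level was 7597, 6869 and 6658 CPM (read counts relative to the TMM-scaled total of the library) in mutant replicates 1, 2 and 3, against 8862, 8479 and 9019 CPM in wild-type replicates 1, 2 and 3. The groups did not overlap in this sum. Most of it came from Map1b, already counted above, and from Stmn1, whose groups overlapped. No share over all genes was computed for such a sum.

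**Figure D1:**
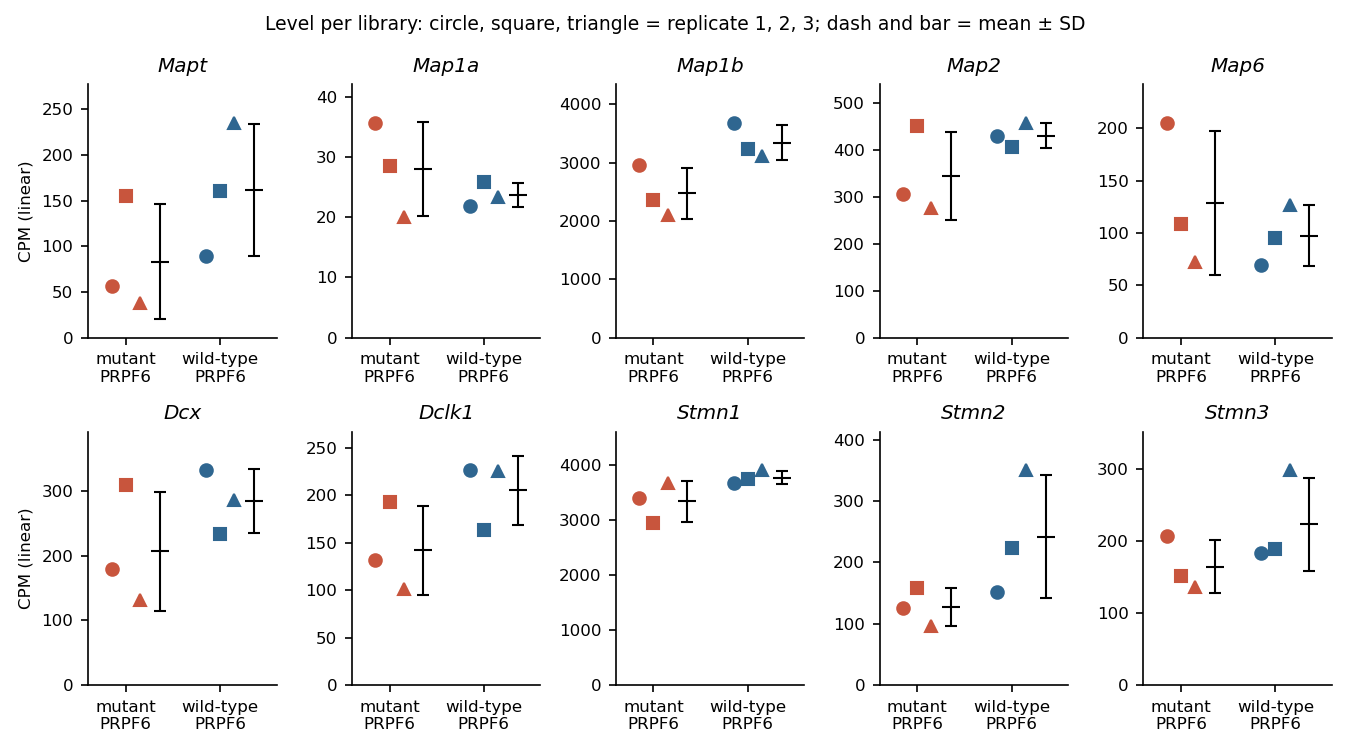
Level of each of the 10 genes in CPM (linear axis starting at 0), with the mutant PRPF6 libraries on the left and the wild-type PRPF6 libraries on the right of each panel; symbols mark the replicates and the dash with its bar is the mean ± SD. For Map1b the 3 mutant libraries lie at 2105 to 2954 CPM, all below the wild-type libraries, while for each of the other 9 genes the groups overlap.

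Total expected counts per library lay between 45115122 and 60600617, so that 1 count was worth 0.0164 to 0.0228 CPM. Several cell type marker lists differed between groups or libraries. The neuron marker list, which holds no MAP, stathmin or tubulin, had a lower fitted mean with mutant PRPF6 in 15 of 15 genes (median log2 difference −0.71), and its summed level was 1737 to 3018 CPM with mutant and 3219 to 4810 CPM with wild-type PRPF6. Radial glia markers were higher in 10 of 10 (median 0.57), at 2644 to 4611 CPM with mutant and 1873 to 2691 CPM with wild-type PRPF6. Interneuron markers, at 290 to 727 CPM with mutant and 140 to 846 CPM with wild-type PRPF6, were lower in 2 and higher in 4 of 6. Wild-type replicate 3 stood apart in red blood cell genes (15487 CPM, against 68.1 to 1123 CPM in the mutant libraries and 980 to 2069 CPM in the other wild-type ones). It also stood apart in meningeal collagens and proteoglycans (1601 CPM, against 10.2 to 156 CPM with mutant PRPF6 and 118 to 132 CPM in the other wild-type libraries). Microglia markers summed to 20.6, 611 and 29.4 CPM in mutant replicates 1, 2 and 3, against 79.6, 233 and 154 CPM in wild-type replicates 1, 2 and 3, so mutant replicate 2 was the highest. Mutant replicate 1 was lowest in the excitatory neuron gene Neurod6, at 57.5 CPM, against 693 and 608 CPM in the other mutant libraries and 583 to 1275 CPM in the wild-type libraries. Mutant replicate 3 was highest in the summed intermediate progenitor markers, at 2355 CPM. The other mutant libraries were at 1382 and 1399 CPM and the wild-type libraries at 1123 to 1628 CPM. The part of these cell types in the results on microtubule genes was not tested, and in bulk libraries fewer cells of a type and less RNA per cell cannot be told apart. Prpf6 itself was at 131, 145 and 125 CPM with mutant and 166, 124 and 131 CPM with wild-type PRPF6, and gene counts do not separate plasmid from endogenous transcripts.

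Levels of different genes were compared per kilobase of merged annotated exon (CPM per kb). Stmn1 was by far the most abundant, at 1738 ± 192 CPM per kb with mutant and 1964 ± 60.8 CPM per kb with wild-type PRPF6 (SD, n = 3 each). Map1b followed at 156 ± 27.4 and 211 ± 18.8 CPM per kb with mutant and wild-type PRPF6, and Stmn3 at 145 ± 32.9 and 197 ± 56.9 CPM per kb. These 2 genes did not differ beyond their spread. Stmn2 came next, at 22.7 ± 5.53 CPM per kb with mutant and 43.1 ± 17.9 CPM per kb with wild-type PRPF6. Map2, Dcx, Mapt, Dclk1 and Map6 formed a group at 9.28 to 21.0 CPM per kb with mutant and 10.7 to 26.2 CPM per kb with wild-type PRPF6, and in the wild-type libraries each differed from its neighbour in the order by less than the larger of their SDs. Map1a was the lowest, at 2.30 ± 0.639 CPM per kb with mutant and 1.95 ± 0.161 CPM per kb with wild-type PRPF6. With the longest coding transcript in place of merged exons, the order in the wild-type libraries was the same for all 10 genes.

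Map1b and Map1a encode the large microtubule-binding proteins of a single family. MAP1B is the early form, abundant in growing axons and migrating neurons, and MAP1A is the form of mature neurons. Their promoters are shown because Map1b was the 1 gene of the 10 whose groups did not overlap. Its relative Map1a had a fitted log2 difference of the opposite sign, but one smaller than its SE (0.24 ± 0.29) and with overlap. Each sequence holds the 250 bases before the RefSeq transcription start on GRCm38.p6, written 5′ to 3′ on the strand of the gene, with chr13:99516603-99516852 (minus strand) for Map1b and chr2:121289352-121289601 (plus strand) for Map1a. Capitals mark matches on either strand to 4 motifs: the TATA box as TATAAA, the CCAAT box as CCAAT, the GC box as GGGCGG and the neuronal E-box as CAGATG.
Map1b: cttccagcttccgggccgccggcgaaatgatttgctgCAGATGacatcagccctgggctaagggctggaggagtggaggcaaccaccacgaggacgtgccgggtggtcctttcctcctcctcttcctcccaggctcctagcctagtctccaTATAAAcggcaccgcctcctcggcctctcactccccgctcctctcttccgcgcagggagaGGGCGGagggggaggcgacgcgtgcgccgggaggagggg
Map1a: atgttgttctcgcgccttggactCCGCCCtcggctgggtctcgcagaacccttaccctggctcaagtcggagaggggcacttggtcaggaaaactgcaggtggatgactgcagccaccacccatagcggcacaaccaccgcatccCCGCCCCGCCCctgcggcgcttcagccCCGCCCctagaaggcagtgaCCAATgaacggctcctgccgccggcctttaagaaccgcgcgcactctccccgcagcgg
The Map1b stretch held TATAAA beginning 99 bases before the start, 1 GGGCGG and 1 CAGATG, while the Map1a stretch held 1 CCAAT and 4 GGGCGG, each of those 4 printed as the complement CCGCCC and in 2 cases overlapping by an end base. TATAAA occurs in 12.4% of the 32851 promoter stretches of this length in the RefSeq table, CCAAT in 33.8%, GGGCGG in 32.7% and CAGATG in 14.4%. These matches describe the letters only. A promoter stretch was found for 6 of the 10 genes.

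Map1b (chromosome 13, 99421446 to 99516540, minus strand, GRCm38) was at 2954, 2366 and 2105 CPM in mutant replicates 1, 2 and 3, against 3679, 3238 and 3109 CPM in wild-type replicates 1, 2 and 3. All mutant libraries lay below all wild-type ones. The means were 2475 ± 435 CPM with mutant and 3342 ± 299 CPM with wild-type PRPF6 (SD, n = 3 each). On the log2 scale the difference was −0.43 ± 0.16 (SE). The edgeR test gave an unadjusted p of 0.025. Leaving out 1 library at a time kept the difference between −0.58 and −0.33, and without wild-type replicate 3 and mutant replicate 1 together it was −0.62. Over the fits with 1 library left out, the unadjusted p of the edgeR test ran from 0.0073 to 0.091.

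Map1a (chromosome 2, 121289600 to 121310832, plus strand) was at 35.6, 28.4 and 20.1 CPM in the mutant libraries, against 21.9, 25.8 and 23.3 CPM in the wild-type libraries. Mutant replicates 1 and 2 were above every wild-type library and mutant replicate 3 was below them all. Its log2 difference was 0.24 ± 0.29 (SE), with 0.033 when mutant replicate 1 and 0.43 when mutant replicate 3 was left out. Its counts are uncertain in part: in all 6 libraries the fractions of Map1a and of Ppip5k1, an inositol phosphate kinase gene that overlaps it on the opposite strand, added up to whole reads (tolerance 0.015). Ppip5k1 was at 13.9, 18.9 and 11.9 CPM with mutant and 11.2, 11.0 and 19.4 CPM with wild-type PRPF6. The CPM ratio of Map1b to Map1a was 83.0, 83.2 and 105 in the mutant libraries and 168, 126 and 133 in the wild-type libraries, so the groups did not overlap. Among the 45 pairs of the 10 genes, 5 had ratios that did not overlap between groups (11.1%), a share near the 13.3% of ratios between one of the 10 and any other tested gene. All 5 were among the 16 pairs that set Map1a or Map6 against another of the genes. Map1a and Map6 were the 2 genes with a higher fitted mean, so this follows from the same values and is not a separate result.

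Map2, whose protein marks dendrites, and Mapt, whose protein tau is concentrated in axons, are related by their microtubule-binding repeats. Map2 (chromosome 1, 66175273 to 66442583, plus strand) was at 307, 451 and 277 CPM in mutant replicates 1, 2 and 3, against 429, 405 and 457 CPM in wild-type replicates 1, 2 and 3. Mutant replicate 2 sat inside the wild-type range and the other mutant libraries below it. The log2 difference was −0.32 ± 0.20 (SE), but −0.56 without mutant replicate 2 and −0.19 without mutant replicate 3. Mapt (chromosome 11, 104231390 to 104332090, plus strand) had the widest spread of the 10 genes on the log2 scale, at 57.0, 155 and 38.3 CPM in the mutant libraries, against 89.9, 161 and 235 CPM in the wild-type libraries. As with Map2, mutant replicate 2 was the one mutant library inside the wild-type range. The log2 difference of Mapt was −0.96 ± 0.53 (SE). It was −1.76 without mutant replicate 2 (unadjusted p = 0.0044 in the edgeR test), −0.61 without mutant replicate 3 and −0.58 when wild-type replicate 3 was omitted. Omitting wild-type replicate 3 and mutant replicate 1 together gave −0.37. Gene counts sum over the 8 coding transcripts annotated for Mapt and the 16 for Map2 in GENCODE M21, so the fetal and adult splice forms of tau and MAP2 were not separated.

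Map6 encodes a protein that makes neuronal microtubules resistant to cold. It lies on chromosome 7 (99267447 to 99337137, plus strand) and was at 205, 108 and 72.0 CPM in mutant replicates 1, 2 and 3, against 69.5, 95.7 and 127 CPM in wild-type replicates 1, 2 and 3. A single library, mutant replicate 1, was above the wild-type range, and it carried the higher mean. Over all 6 libraries the log2 difference came to 0.40 ± 0.38 (SE). Without mutant replicate 1 the sign turned, to −0.11. It was 0.68 without mutant replicate 3, 0.64 without wild-type replicate 3 and 0.21 without wild-type replicate 1.

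**Figure D2:**
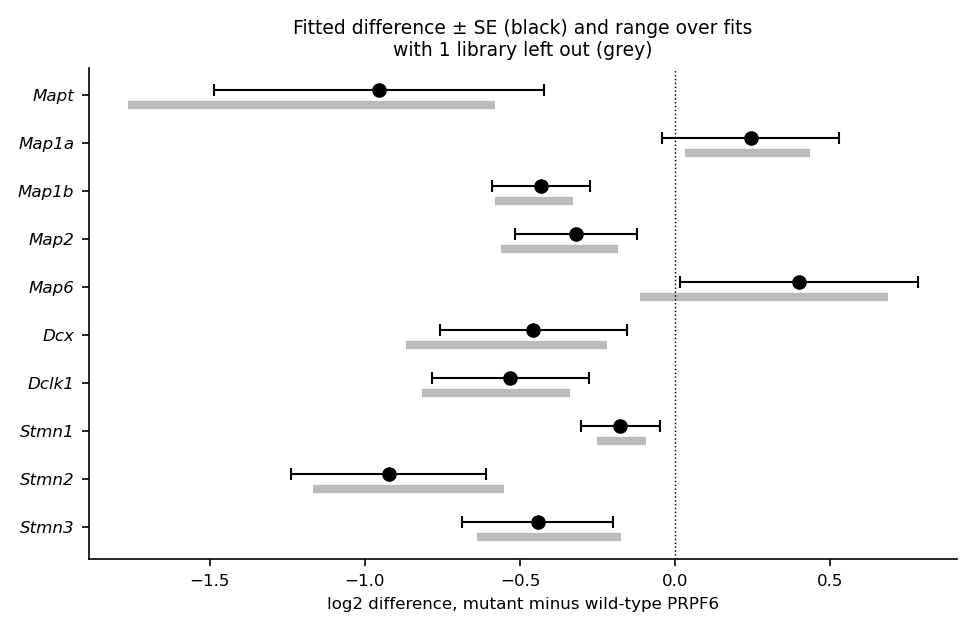
Log2 difference, mutant minus wild-type PRPF6, for each of the 10 genes with its SE (black) and the range of the difference over the 6 fits that each leave out 1 library (grey). The difference stays below 0 in 8 genes under all 6 omissions, stays above 0 for Map1a (0.033 to 0.43), and crosses 0 for Map6 (−0.11 to 0.68).

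Dcx (chromosome X, 143855842 to 143933311, minus strand) encodes doublecortin, the marker of migrating young neurons. It was at 179, 310.2 and 132 CPM in mutant replicates 1, 2 and 3, against 333, 234 and 287 CPM in wild-type replicates 1, 2 and 3. Mutant replicates 1 and 3 were below every wild-type library and mutant replicate 2 was within their range. For Dcx the log2 difference was −0.46 ± 0.30 (SE), −0.87 without mutant replicate 2 and −0.22 without mutant replicate 3. Dclk1 (chromosome 3, 55242364 to 55539068, plus strand), which joins doublecortin domains to a kinase domain, was at 132, 193 and 101 CPM in the mutant libraries, against 226, 164 and 226 CPM in the wild-type libraries. Its order among the mutant libraries was that of Dcx. Dclk1 had a log2 difference of −0.53 ± 0.25 (SE), with −0.81 without mutant replicate 2 and −0.34 without mutant replicate 3. The Dcx to Dclk1 ratio kept to a narrow range, at 1.36, 1.61 and 1.31 with mutant and 1.47, 1.43 and 1.27 with wild-type PRPF6, and the groups overlapped.

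Stmn1 (chromosome 4, 134468320 to 134473843, plus strand) encodes the cytosolic stathmin found in dividing progenitors as well as in neurons. It was at 3395, 2947 and 3679.6 CPM in mutant replicates 1, 2 and 3, against 3678, 3743 and 3905 CPM in wild-type replicates 1, 2 and 3. Mutant replicate 3, the lowest of the 6 libraries in 8 of the 10 genes, was here within the wild-type range. The log2 difference was −0.18 ± 0.13 (SE), the smallest in size of the 10, and it was −0.094 without mutant replicate 2.

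Stmn2 (chromosome 3, 8509360 to 8561606, plus strand), also called SCG10, encodes a membrane-anchored stathmin of growth cones. The mutant libraries held 126, 159 and 97.0 CPM, against 152, 223 and 350.1 CPM in the wild-type libraries. Mutant replicate 2 lay just above wild-type replicate 1, and otherwise the groups were apart. The means were 127 ± 31.0 CPM with mutant and 242 ± 100.45 CPM with wild-type PRPF6 (SD, n = 3 each). That is a log2 difference of −0.92 ± 0.31 (SE). The unadjusted p was 0.018 in the edgeR test. Without wild-type replicate 3, which held the most Stmn2, the difference was −0.55 and the unadjusted p 0.075. The fractions of the Stmn1 and Stmn2 counts added up to whole reads in all 6 libraries (tolerance 0.015), so some reads had been divided between them.

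Stmn3 (chromosome 2, 181306459 to 181314500, minus strand), another neuronal membrane-anchored stathmin, was at 207, 152 and 136 CPM in mutant replicates 1, 2 and 3, against 184, 189 and 299 CPM in wild-type replicates 1, 2 and 3. Mutant replicate 1 was inside the wild-type range and the other mutant libraries below it. Stmn3 had a log2 difference of −0.44 ± 0.24 (SE) and −0.18 without wild-type replicate 3. Relative to Stmn1, Stmn2 stood at 0.0372, 0.0539 and 0.0264 in the mutant libraries and at 0.0413, 0.0596 and 0.0896 in the wild-type libraries, with overlap.

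Mutant replicate 3 was the lowest of the 6 libraries in 8 of the 10 genes, against 16.0% of all genes tested. Wild-type replicate 3 was the highest in 5, against 14.4%. In the 87 tested genes of the other microtubule lists described below, these shares were also above those of all genes, at 34.5% and 24.1%. Mapt, Map2, Dcx, Dclk1 and Stmn2 were higher in mutant replicate 2 than in the other mutant libraries, and the other 5 genes were not. When mutant replicate 2 was left out, 5 of the 10 genes (Mapt, Map2, Dcx, Dclk1 and Stmn2) were lower at an unadjusted p under 0.05, where 4.34% of all genes tested were. When mutant replicate 3 was left out, 0 of the 10 were lower at that level by the same edgeR test, where 0.871% of all genes tested were. In no fit did any of the 10 pass with adjustment over all genes.

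**Figure D3:**
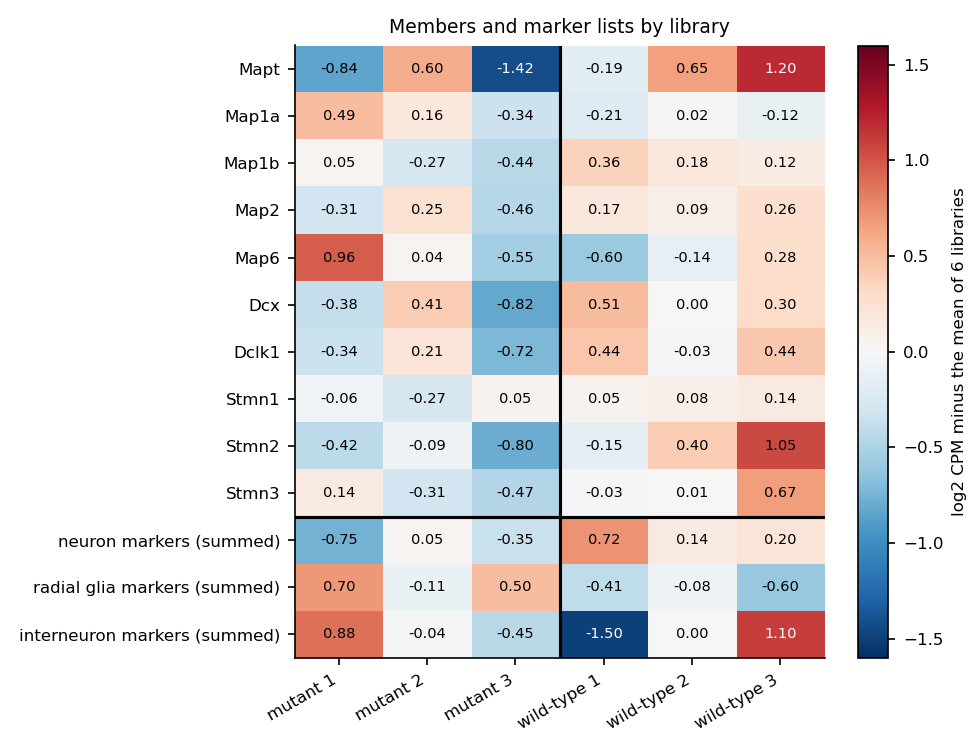
Log2 CPM minus the mean of the 6 libraries (colour and printed value) for the 10 genes and for the summed neuron, radial glia and interneuron markers, with the 3 mutant libraries left of the line. Mapt spans −1.42 in mutant replicate 3 to 1.20 in wild-type replicate 3, and the summed neuron markers span −0.75 in mutant replicate 1 to 0.72 in wild-type replicate 1.

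Set against the summed neuron markers of the same library, the 10 genes together stood at 4.37, 2.28 and 2.91 times that sum in mutant replicates 1, 2 and 3, and at 1.84, 2.63 and 2.68 times in wild-type replicates 1, 2 and 3. The groups overlapped, and the mutant mean was the higher, at 3.19 ± 1.08 against 2.38 ± 0.470 (SD, n = 3 each). On this scale 9 of the 10 genes overlapped between groups, and Map1a was higher in every mutant library than in every wild-type library (0.0205, 0.00942 and 0.00876 with mutant, 0.00456, 0.00801 and 0.00693 with wild-type PRPF6). Of all genes tested, 27.6% were likewise higher in every mutant library on this scale and 0.574% lower, so 1 of 10 is not a result about these genes. Map1b, apart in CPM, overlapped here, at 1.70, 0.784 and 0.919 with mutant and 0.765, 1.01 and 0.923 with wild-type PRPF6. The neuron markers and the 10 genes thus did not move in a fixed proportion in each library. Mutant replicate 1, lowest in the neuron sum, was highest in the combined ratio. The sum weighs abundant genes most, and the neuron markers were not alike in this library. Neurod6 was at 57.5 CPM there, against 583 to 1275 CPM in the wild-type libraries. Rtn1, from the same list, was at 584 CPM, against 544 to 660 CPM.

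**Figure D4:**
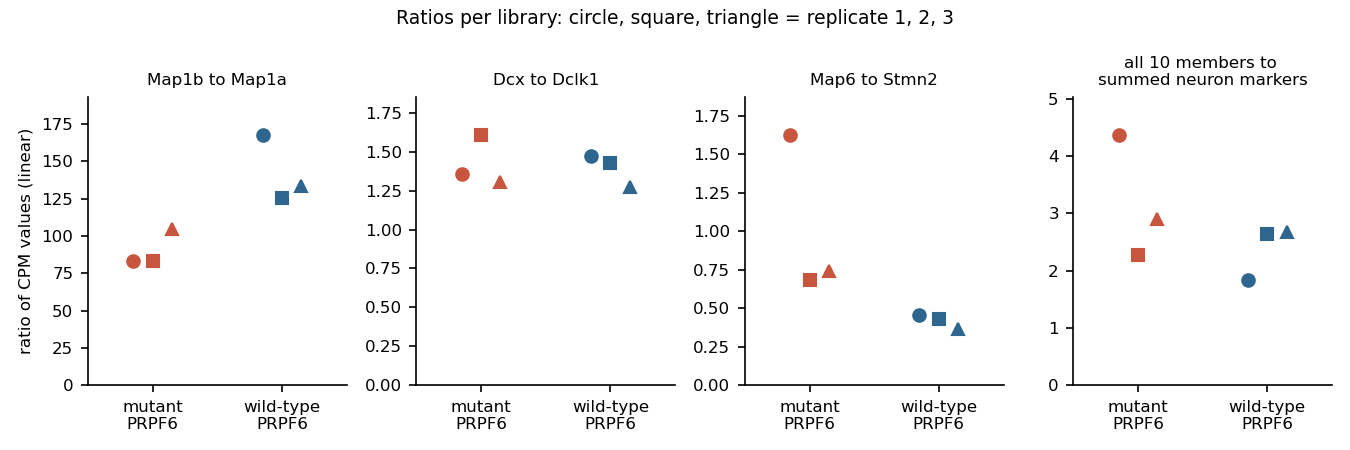
CPM ratios per library on linear axes starting at 0, with the mutant PRPF6 libraries left of the wild-type ones in each panel and symbols marking the replicates. Map1b to Map1a is 83.0 to 105 with mutant and 126 to 168 with wild-type PRPF6. Map6 to Stmn2 is 0.682 to 1.63 with mutant and 0.364 to 0.458 with wild-type PRPF6, also without overlap. Dcx to Dclk1 and the 10 genes relative to the neuron markers overlap between groups.

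Among other genes of the microtubule system, 7 lists were described by counts, and none of their genes passed the test with adjustment over all genes. Every mutant library was below every wild-type one in 1 of 15 lattice-binding, 1 of 5 CRMP, 3 of 12 tubulin-modifying and 2 of 20 kinase or phosphatase genes. Of all genes tested, 4.54% were so. The opposite separation was seen in 1 lattice-binding and 1 kinase or phosphatase gene, against 4.60%. The end-binding, severing and tubulin lists had 0 such genes either way. Other lattice-binding MAPs and family members had a lower fitted mean with mutant PRPF6 in 6 of 15 genes (median log2 difference 0.29), and in 2 of them without mutant replicate 3. Within this list Stmn4, the remaining stathmin, was at 101, 83.9 and 76.1 CPM with mutant and 89.3, 146 and 165 CPM with wild-type PRPF6, a log2 difference of −0.62 ± 0.25 (SE). Map10 was at 23.1, 18.8 and 26.7 CPM with mutant and 6.03, 17.3 and 13.0 CPM with wild-type PRPF6, without overlap. Map1s, a short relative of Map1a and Map1b, was at 123 ± 18.0 CPM with mutant and 100.2 ± 17.2 CPM with wild-type PRPF6 (SD, n = 3 each). Tppp3, a tubulin polymerisation-promoting protein gene, was at 68.0 CPM in mutant replicate 1, against 8.66 to 11.5 CPM in the other mutant libraries and 10.2 to 13.3 CPM in the wild-type ones.

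End-binding and capping proteins, which control growth at the tips of microtubules, were lower in 14 of 17 genes with a median of −0.13, and in 9 of them without mutant replicate 3. Camsap2, which protects minus ends, was at 113, 109 and 56.5 CPM with mutant and 55.2, 68.9 and 71.6 CPM with wild-type PRPF6. Nav3, a neuron navigator, was at 4.66, 27.0 and 4.26 CPM with mutant and 47.6, 18.6 and 24.4 CPM with wild-type PRPF6, repeating the pattern in which mutant replicate 2 alone reached the wild-type range. CRMPs, tubulin carriers of the growth cone, were lower in 3 of 5 genes (median −0.17). Of these Crmp1 was at 575 ± 166 and 735 ± 132 CPM with mutant and wild-type PRPF6, and Dpysl4 at 204 ± 117 and 97.1 ± 34.8 CPM (SD, n = 3 each).

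Severing enzymes, which cut microtubules, were lower in 4 of 7 tested genes (median −0.083), with Spast at 131 ± 25.5 and 156 ± 14.2 CPM with mutant and wild-type PRPF6 (SD, n = 3 each). Tubulin-modifying enzymes were lower in 10 of 12 (median −0.21). Vash1, which with its partner Svbp removes the end tyrosine of alpha-tubulin, was at 18.5, 29.2 and 28.3 CPM with mutant and 48.6, 36.05 and 40.9 CPM with wild-type PRPF6, without overlap (log2 difference −0.72 ± 0.27, SE). Agtpbp1, a deglutamylase of tubulin, was at 14.9 ± 9.44 CPM with mutant and 27.1 ± 10.7 CPM with wild-type PRPF6 (SD, n = 3 each).

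Kinases and phosphatases that act on MAPs were lower in 12 of 20 (median −0.098). Cdk5r1, the p35 activator of the tau kinase CDK5, was at 57.3 ± 2.94 and 84.9 ± 27.1 CPM, and Mark2, a polarity kinase that phosphorylates MAPs, at 130 ± 29.2 and 96.7 ± 15.04 CPM with mutant and wild-type PRPF6 (SD, n = 3 each). Brsk2, a polarity kinase that phosphorylates tau, was at 120.4, 122 and 110.4 CPM with mutant and 108, 94.2 and 115 CPM with wild-type PRPF6, and the groups overlapped. Tubulins, the building blocks themselves, were lower in 7 of 11 with a median of −0.043, and in 1 of them without wild-type replicate 3. Tuba1a was at 10112 ± 1240 and 11199 ± 1964 CPM and Tuba4a at 22.1 ± 16.3 and 38.3 ± 12.4 CPM with mutant and wild-type PRPF6 (SD, n = 3 each). Tubulin isotype genes of one class are close in coding sequence, and how reads were divided between them was not checked.

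**Figure D5:**
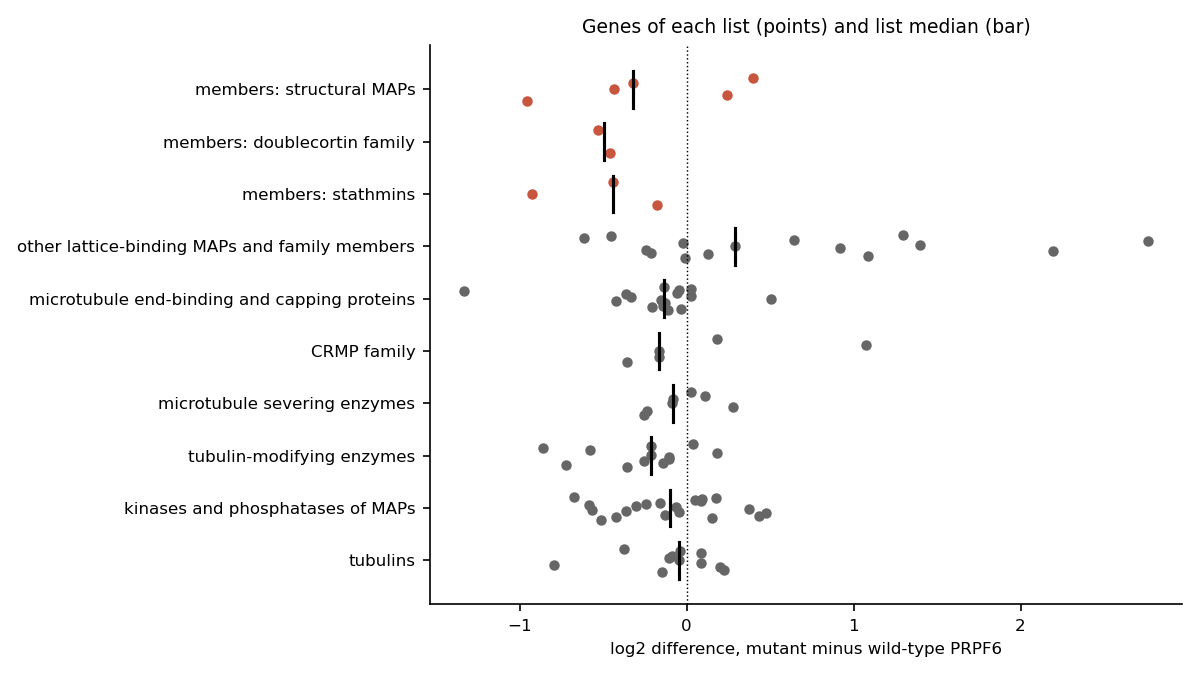
Log2 difference, mutant minus wild-type PRPF6, of each tested gene (points) and the list median (bar) for the 10 genes split by role (red) and for the 7 other microtubule lists (grey). The doublecortin and stathmin genes lie left of 0, the medians of the tubulins (−0.043) and of the severing enzymes (−0.083) lie near 0, and the median of the other lattice-binding MAPs lies at 0.29.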

How the data were processed

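Deposited values were expected counts per gene, made by the authors with RSEM on mouse mm10 per the submitters' processing notes. No source used here names the RSEM version, aligner, annotation or strand setting. RSEM divides reads that fit several genes, so 8.15% to 9.15% of values per library were not whole. Per the series' design text, cDNA was made from picogram amounts of total RNA. No molecular identifiers are mentioned, so reads cannot be taken as independent molecules, and how far they were copies was not measured.

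Counts were rounded, filtered with filterByExpr and scaled with TMM. The test was edgeR's two-sided quasi-likelihood F-test with robust estimation (edgeR 4.0.16, R 4.3.3; group as the only term), with adjustment by Benjamini-Hochberg over all 14451 genes tested. SEs come from the fit. DESeq2 1.42.0, limma-voom (limma 3.58.1), other scalings and filters, a replicate block and leave-one-out fits were alternatives. The steps were tested on simulated data, with a pass required only for large changes at a spread far below that of these data. It therefore does not show the power of this comparison. Groups and replicate numbers came from sample titles.

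The 10 genes and all lists were chosen with earlier results of these data known. Beyond the 10, Prpf6 and Brsk2, the 2 genes of smallest unadjusted p per list were named (4 for the lattice-binding list), except 1 that is not reported here. Neurod6, Rtn1, Ppip5k1 and Map7d3 were named after their values were seen. Map7d3 and Svbp were matched under older symbols. Coordinates and exon lengths are GENCODE M21 on GRCm38, and promoters are RefSeq.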

Additional observations from a re-analysis of the deposited data

How the results depend on the processing

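Of 150 values of the 10 genes under alternatives, 149 kept their direction and none was called. Staying uncalled says little, since the lowest adjusted p of the 10 genes was 0.36 (Stmn2, DESeq2 test). DESeq2 gave no adjusted p for Map1a. Map6 turned, to −0.11, without mutant replicate 1, in a range of −0.11 to 0.68 over the leave-one-out fits. The count of called genes, 0 with edgeR, was 6 with DESeq2, which gave no adjusted p for 8695 genes, and 0 in every leave-one-out fit (0 to 0). Of the 10 genes, 8 to 9 had lower fitted means with 1 library left out. The corresponding ranges were 2 to 9 for other lattice-binding MAPs (2 without mutant replicate 3), 9 to 15 for end-binding proteins (9 without mutant replicate 3), 3 to 4 for CRMPs, 3 to 5 for severing enzymes, 8 to 11 for modifying enzymes, 10 to 15 for kinases and phosphatases and 1 to 9 for tubulins (1 without wild-type replicate 3). With wild-type replicate 3 and mutant replicate 1 both left out, an alternative chosen after seeing the data, 3 tubulins were lower. The causes were not tested. Other scalings moved the all-gene median by at most 0.026 (log2).

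Correlations of deviations from the group means across genes gave no sign that replicate numbers pair the libraries. They were −0.013, 0.036 and −0.31 for numbers 1, 2 and 3, and no library correlated best with its own number. Sample descriptions give the libraries of both groups the same 3 numbers. The labels do not say whether libraries of one number share a litter or day, and these correlations cannot decide it. With the replicate block 0 genes were called and 307 were at an unadjusted p under 0.05. With 3 libraries a group, differences within the spread between libraries were not detectable.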

Other observations

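Mutant replicate 1 stood far from the other libraries in a few microtubule genes. These were Tppp3 (68.0 CPM, against 8.66 to 13.3 CPM in the other 5 libraries), Dpysl4 (338 CPM, against 66.8 to 153 CPM), Tuba4a (3.82 CPM, against 27.7 to 52.7 CPM) and Map7d3, a gene of the MAP7 family chosen here after its values were seen (9.17 CPM, against 0.365 to 1.49 CPM). They are single genes: this library was the highest of the 6 in 17 of the 87 tested genes of the 7 other microtubule lists (19.5%), in 2 of the 10 MAP and stathmin genes, and in 23.3% of all genes tested.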
